A study of Komagataella pastoris with 4 samples.

Results

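The genes described here encode the enzymes of the tricarboxylic acid (TCA) cycle and of the glyoxylate bypass, the enzymes that feed pyruvate into them, and the carrier proteins that move their substrates across the inner mitochondrial membrane of *Pichia pastoris* (*Komagataella phaffii*). Members were taken from annotation text alone, as rows whose description, KEGG entry or UniRef name contains the name of such an enzyme or of the mitochondrial carrier family, without rows naming isocitrate, homoaconitase, homocitrate or carnitine. This gave 51 of 5427 rows, all of which passed the filter on low values (5 counts or more in 2 libraries or more). Of the 51, 17 name an enzyme of these pathways and 24 a carrier. A further 5 are regulators of pyruvate dehydrogenase, and 5 carry another function by their annotation. RNA was sequenced from *GS115*, a histidine auxotroph with the wild-type MXR1 gene, and from *Dmxr1*, a zeocin-resistant *GS115* derivative with the same auxotrophy in which a resistance cassette disrupts MXR1, the gene of the carbon source regulator Mxr1p. Both strains grew for 14 h on ethanol in minimal medium, and each gave 2 libraries from duplicate cultures, which the study treats as biological replicates. The p-values of the gene tests rest on the spread within these pairs of libraries, which the fit shares in part over all genes. A gene's p-value is therefore not a measure of its own replicate spread alone. By the study's account the mutant grows more slowly on ethanol, so a difference in growth at harvest and other effects of the disruption cannot be told apart.

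Cells that live on ethanol turn it into acetyl-CoA and burn the acetyl unit in the TCA cycle. Citrate synthase joins acetyl-CoA to oxaloacetate, and the later steps release carbon dioxide and reducing power and restore oxaloacetate. To build sugars and amino acids from units of acetyl-CoA, yeast uses the glyoxylate bypass, in which isocitrate lyase and malate synthase skip the steps that release carbon dioxide. Members of the mitochondrial carrier family link the matrix to the cytosol. In *Saccharomyces cerevisiae*, the succinate/fumarate carrier brings succinate made by the bypass into mitochondria, and the ADP/ATP carrier exports the ATP made there.

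Total counts were 24140235 and 29402357 for the *GS115* libraries, against 25524047 and 27988540 for *Dmxr1*. The MXR1 row (ACIB2EUKG772516) had 287 and 405 CPM (counts per 1000000, with library sizes adjusted by TMM) in *GS115* and 206 and 258 in *Dmxr1*, and counts over the whole gene do not separate the disrupted part from the rest, so this row is no check of the labels. Over all 5425 genes tested by edgeR's quasi-likelihood test, 0.535% were called higher and 3.26% lower in *Dmxr1*, where a call needs an adjusted p of at most 0.05 and a log2 fold change of at least 1 in size. At the adjusted p alone, 5.07% were higher and 10.5% lower. Below, "rose" and "fell" are used of rows past the adjusted p, and p-values are from this test with Benjamini-Hochberg adjustment over all genes tested.

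Of the 51 members, 0 were called higher and 0 lower, by edgeR as by DESeq2, since none of those past the adjusted p reached the fold threshold. Without adjustment, 15 members (29.4%) were higher and 5 (9.8%) lower at p under 0.05, where 13.5% of all genes were higher and 18.5% lower. At the adjusted p alone 6 members rose, which is 11.8% of them against the 5.07% of all genes, and 1 fell, 1.96% against 10.5%. The 6 were the succinate/fumarate carrier, the major ADP/ATP carrier, 3-isopropylmalate dehydrogenase of leucine synthesis, citrate synthase, the carrier YHM1/SHM1 and a citrate/oxoglutarate carrier by UniRef name. The mitochondrial iron carrier fell. The median log2 fold change was 0.12 over the members and 0.0041 over all genes. The members were chosen with earlier results of these data known, so their shares beside those of all genes are description and no test. Both *Dmxr1* libraries lay above both *GS115* libraries in 26 members (51.0%; 31.1% of all genes) and below both in 13 (25.5%; 31.3% of all genes). Without *Dmxr1* replicate 1, 0 members were past the adjusted p, although all 7 kept their direction, and over all genes the numbers then fell to 45 higher and 164 lower, from 275 and 567.

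**Figure D1:**
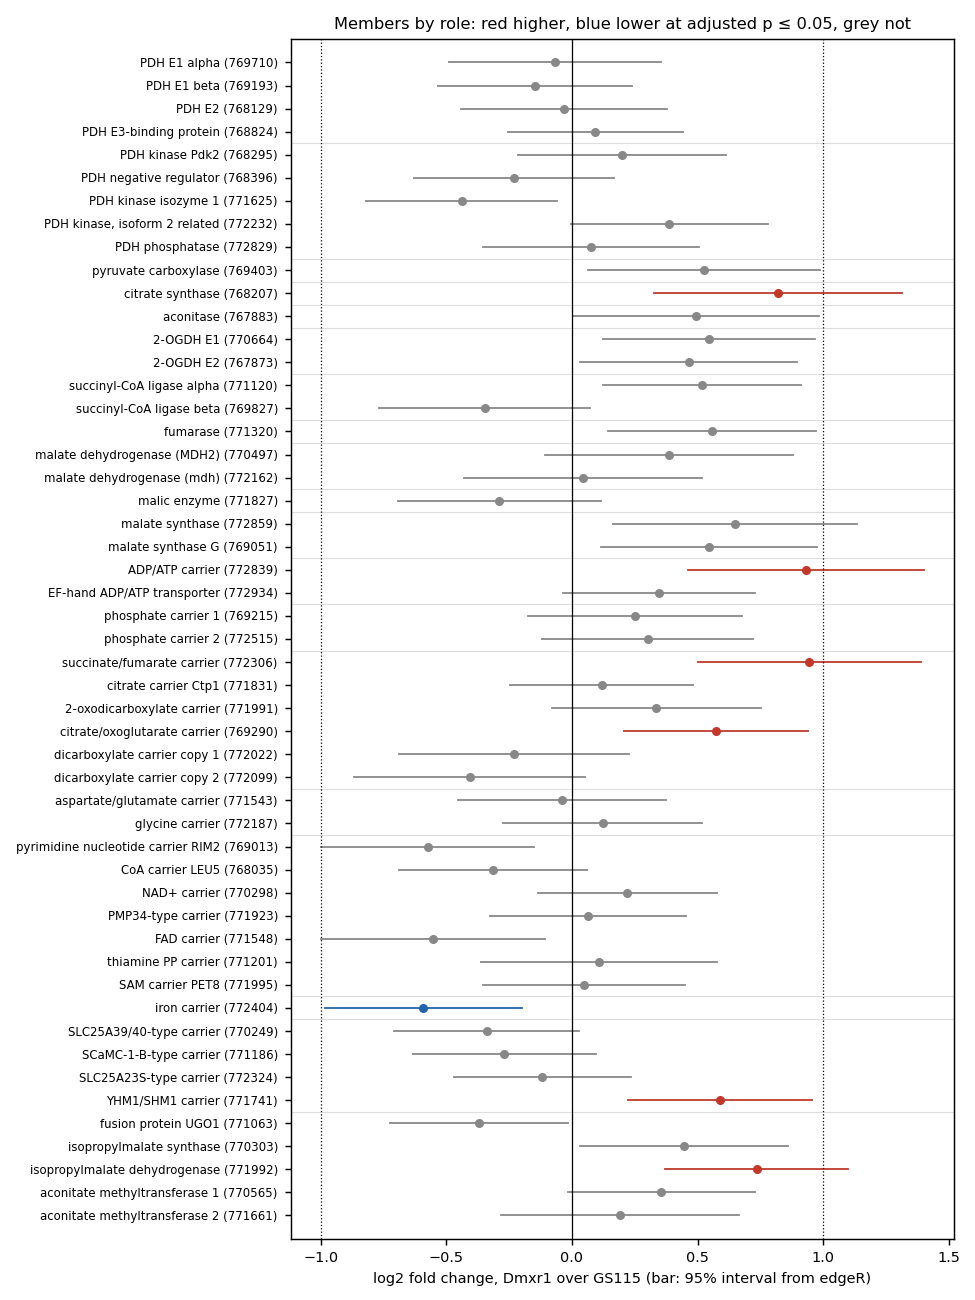
Log2 fold change (x axis, *Dmxr1* over *GS115*) of the 51 members in order of their role, with points for the edgeR estimate and bars for its unadjusted 95% interval. The 6 red points (higher at the adjusted p) and the blue point (lower) all lie inside the dotted lines at a log2 fold change of 1 in either direction.

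The members took 2.29% (95% Wilson interval 2.28 to 2.30) and 2.67% (2.67 to 2.68) of all counts in the *GS115* libraries. In *Dmxr1* they took 3.66% (3.65 to 3.67) and 3.62% (3.61 to 3.62). Both *Dmxr1* libraries were above both *GS115* libraries in this sum, and the intervals cover counting error only. These shares use counts without TMM adjustment. With it, the summed CPM of all members was 25824 and 25126 in *GS115* against 34755 and 35914 in *Dmxr1*, a ratio of means of 1.387. Such sums weigh much-counted rows most, since 5 members made up 55.7% of the members' CPM. The median log2 fold change of the members was only 0.12. The summed CPM of the 17 enzymes was 19060 and 18704 in *GS115* against 25238 and 26874 in *Dmxr1*, a ratio of means of 1.38. That of the 24 carriers was 5367 and 4978 against 7807 and 7388, a ratio of 1.47.

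Pyruvate reaches the cycle through the pyruvate dehydrogenase (PDH) complex, which makes acetyl-CoA from it, or through pyruvate carboxylase, which makes oxaloacetate. None of the 4 PDH complex rows passed the test. The E2 acetyltransferase (ACIB2EUKG768129), the core of the complex, had 563 and 559 CPM in *GS115* and 537 and 561 in *Dmxr1*. Its libraries overlapped between the strains, and its log2 fold change was -0.03 with a 95% interval from -0.44 to 0.38 (adjusted p = 0.929). The E1 alpha subunit (ACIB2EUKG769710) had 291 and 241 CPM against 283 and 224, and the E1 beta subunit (ACIB2EUKG769193) had 191 and 192 against 189.6 and 157. Their log2 fold changes were -0.07 (interval -0.49 to 0.35) and -0.15 (-0.53 to 0.24), and those of E2 and E1 alpha turned positive, to 0.05 or less, with library size alone or upper-quartile scaling. The E3-binding protein (ACIB2EUKG768824), which holds dihydrolipoamide dehydrogenase in the complex, had 65.6 and 64.0 CPM against 70.6 and 67.6, a log2 fold change of 0.09 (-0.26 to 0.44). Over the 4 subunits the unadjusted intervals reached no lower than -0.53 and no higher than 0.44.

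PDH is switched off by kinases that phosphorylate E1 and switched on again by a phosphatase. None of the 5 regulator rows passed the test. The kinase Pdk2 (ACIB2EUKG768295) had 391 and 448 CPM in *GS115* and 507 and 457 in *Dmxr1*, with a log2 fold change of 0.20 (adjusted p = 0.506). The row related to kinase isoform 2 (ACIB2EUKG772232) had 157 and 188 CPM against 218 and 235 (0.39, adjusted p = 0.161), and kinase isozyme 1 (ACIB2EUKG771625), which had the lowest log2 fold change of the regulators, had 47.7 and 39.8 against 34.8 and 29.6 (-0.44, adjusted p = 0.107). The values of the latter pair did not overlap between the strains and stood in opposite directions. The phosphatase (ACIB2EUKG772829) and the negative regulator ACIB2EUKG768396 overlapped between strains, with log2 fold changes of 0.08 and -0.23. Pyruvate carboxylase (ACIB2EUKG769403), a biotin enzyme that tops up the cycle, had 1420.1 and 1564 CPM in *GS115* and 1969.7 and 2330.5 in *Dmxr1*. Both *Dmxr1* libraries were above, at a log2 fold change of 0.53 (adjusted p = 0.110, SE 0.22), which did not pass in edgeR. DESeq2 gave an adjusted p of 0.0306.

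Among the 9 member rows of cycle steps, citrate synthase passed and the other 8 did not, 7 of them with values above 0. Succinate dehydrogenase and isocitrate dehydrogenase are not among the members and are described further on. Citrate synthase (ACIB2EUKG768207) had 2631 and 2654 CPM in *GS115* and 4162 and 5159 in *Dmxr1*. It rose 1.76-fold, a log2 fold change of 0.82 (adjusted p = 0.0272, SE 0.23). The *GS115* libraries lay close together and the *Dmxr1* libraries did not. Whether citrate synthase passed the adjusted p changed with the libraries used, and the cause of this was not tested. The log2 fold change of citrate synthase was 0.81 without *GS115* replicate 1, 0.965 without *Dmxr1* replicate 1 and 0.655 without *Dmxr1* replicate 2. Aconitase (ACIB2EUKG767883), which turns citrate into isocitrate, had 4056 and 4031 CPM against 5612 and 5771. Its replicates agreed closely in each strain, and its log2 fold change was 0.49 (adjusted p = 0.154, SE 0.23). DESeq2 gave an adjusted p of 0.0290. A row of the aconitase family that the member rule left out (ACIB2EUKG771308) had 318 and 284 CPM in *GS115* against 354 and 303 in *Dmxr1*. That row overlapped between strains, at a log2 fold change of 0.13 (adjusted p = 0.681).

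The 2-oxoglutarate dehydrogenase complex, which makes succinyl-CoA and is built like PDH, had its E1 row (ACIB2EUKG770664) at 512 and 537 CPM in *GS115* and 714 and 819 in *Dmxr1*. Its E2 row (ACIB2EUKG767873) had 618 and 498 CPM against 756 and 785. Neither pair overlapped between strains. The log2 fold changes were 0.55 (adjusted p = 0.0750, SE 0.20) for E1 and 0.47 (adjusted p = 0.128, SE 0.20) for E2. E1 passed with library size alone (adjusted p = 0.0347), with upper-quartile scaling (0.0338) and in DESeq2 (0.0198), and E2 did so in none of these.

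Succinyl-CoA ligase forms ATP or GTP as it releases succinate. Its subunit rows stood in opposite directions, and neither passed the test. The alpha subunit (ACIB2EUKG771120) had 177 and 155 CPM in *GS115* and 255 and 219.6 in *Dmxr1*, a log2 fold change of 0.52 (adjusted p = 0.0721, SE 0.19). The beta subunit (ACIB2EUKG769827) had 469 and 369 CPM against 337 and 322, a log2 fold change of -0.35 (adjusted p = 0.241, SE 0.20). Alpha was above and beta below *GS115* in both *Dmxr1* libraries. The ratio of alpha to beta CPM within a library, which does not depend on the scaling, was 0.376 and 0.420 in *GS115* and 0.757 and 0.682 in *Dmxr1*, a change by 0.85 on the log2 scale. An exact permutation test over the 4 libraries gave a two-sided p of 0.333, the smallest that 2 libraries against 2 allow. The test could therefore not separate the strains, and the direction of the ratio follows from the values of both rows. This ratio was 1 of 6 such ratios computed.

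Fumarase (ACIB2EUKG771320), which adds water to fumarate to give malate, had 502 and 519 CPM in *GS115* and 770.1 and 732 in *Dmxr1*. The strains did not overlap, and the log2 fold change was 0.56 (adjusted p = 0.0662, SE 0.19; 0.0126 in DESeq2). Malate dehydrogenase closes the cycle by making oxaloacetate. The row of the KEGG type MDH2 (ACIB2EUKG770497) had 2176 and 1590.1 CPM against 2300.5 and 2619, and the row of the KEGG type mdh (ACIB2EUKG772162) had 2469 and 2498 against 2315 and 2806. The annotation does not say in which compartment either enzyme works. The MDH2-type row stood at a log2 fold change of 0.39 (adjusted p = 0.268). The mdh-type row overlapped between strains at 0.04 (interval -0.43 to 0.52). Over the 9 rows of these 6 cycle steps the median log2 fold change was 0.49, and 1 row passed the adjusted p. Both *Dmxr1* libraries lay above both *GS115* libraries in 7 rows (77.8%). That held for 31.1% of all genes and for 48.0% of genes with a mean of 500 CPM or more. Mitochondrial malic enzyme (ACIB2EUKG771827), which takes malate out of the cycle as pyruvate, had 218 and 274 CPM against 197 and 205, a log2 fold change of -0.29 (adjusted p = 0.311).

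**Figure D2:**
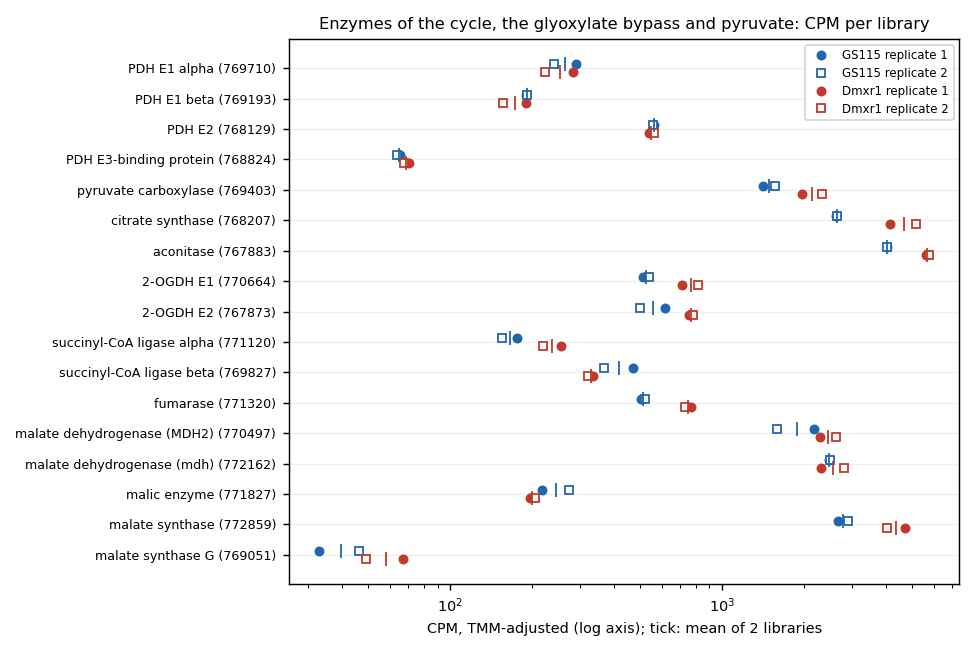
CPM per library (x axis, log scale) of the 17 enzyme rows, with circles for replicate 1, squares for replicate 2 and ticks for strain means. Citrate synthase, aconitase, fumarase and malate synthase show *Dmxr1* libraries (red) to the right of *GS115* libraries (blue), whereas the E2 row of PDH lies between 537 and 563 CPM in all 4.

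Malate synthase makes malate from acetyl-CoA and glyoxylate and completes the bypass. The row ACIB2EUKG772859 had 2669 and 2912 CPM in *GS115* and 4703 and 4048 in *Dmxr1*. Both *Dmxr1* libraries were above, at 1.57-fold, a log2 fold change of 0.65 (SE 0.23) whose adjusted p of 0.0683 missed the threshold. It was 0.0259 with library size alone, 0.0316 with upper-quartile scaling and 0.00454 in DESeq2. The row ACIB2EUKG769051, described as malate synthase G, had 33.1 and 46.2 CPM against 66.9 and 49.0. Its *Dmxr1* libraries were also higher, with replicate 1 the highest, and its log2 fold change was 0.55 (adjusted p = 0.0803, SE 0.20). It passed with upper-quartile scaling (adjusted p = 0.0395) and without *GS115* replicate 2 (0.81, adjusted p = 0.00874) or *Dmxr1* replicate 2 (0.75, adjusted p = 0.0412).

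A list of 17 further genes of these pathways, matched by name outside the members, holds isocitrate lyase, succinate dehydrogenase, NADP-type isocitrate dehydrogenases and others. Of these, 5 rose (29.4%, against 5.07% of all genes) and 1 fell (5.88%, against 10.5%) at the adjusted p. The 2 called higher (11.8%, against 0.535% of all genes) were isocitrate lyase and an NADP isocitrate dehydrogenase. The list was chosen with earlier results of these data known, so its shares are description and no test. Isocitrate lyase (ACIB2EUKG768919), the partner of malate synthase, had 874 and 888 CPM in *GS115* and 1964 and 1968 in *Dmxr1*, a 2.23-fold rise. The NAD-dependent isocitrate dehydrogenase of the cycle is in neither list, since rows naming isocitrate were left out of the members and rows naming isopropylmalate out of the further genes. Its subunit rows ACIB2EUKG770628 (171 and 169 CPM against 221 and 223) and ACIB2EUKG772416 (184 and 168 against 254 and 236) stood at 0.39 (adjusted p = 0.145) and 0.48 (0.0865). The other 3 of the list that rose were subunits of succinate dehydrogenase, the enzyme that works between succinyl-CoA ligase and fumarase. The flavoprotein subunit (ACIB2EUKG772257) had 1204 and 1305 CPM against 2239 and 1921 (log2 fold change 0.73, adjusted p = 0.0325). The cytochrome b subunit (ACIB2EUKG769080) and the membrane anchor ACIB2EUKG769692 rose by 0.88 and 0.94 on the log2 scale (adjusted p = 0.00753 and 0.00602). The iron-sulfur subunit (ACIB2EUKG770806) and the second anchor row (ACIB2EUKG771554) had values of 0.50 and 0.51 that did not pass. The row that fell was succinate dehydrogenase assembly factor 2 (ACIB2EUKG770403), with 321 and 214 CPM against 172 and 161 (-0.68, adjusted p = 0.0386). Dihydrolipoyl dehydrogenase (ACIB2EUKG769432), the E3 that PDH and 2-oxoglutarate dehydrogenase share, stood at 0.47 (adjusted p = 0.109), and the mitochondrial pyruvate carrier rows ACIB2EUKG769304 and ACIB2EUKG770843 at 0.32 and 0.18. Phosphoenolpyruvate carboxykinase (ACIB2EUKG769337), which takes oxaloacetate towards sugars, stood at 0.29 (adjusted p = 0.430). Without *Dmxr1* replicate 1, only isocitrate lyase and the NADP isocitrate dehydrogenase of this list were past the adjusted p. The flavoprotein subunit and assembly factor 2 also missed it without *GS115* replicate 1 (adjusted p = 0.103 and 0.303) or *Dmxr1* replicate 2 (0.0695 and 0.146).

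Of the 24 carriers, 4 rose (16.7%, against 5.07% of all genes) and 1 fell (4.17%, against 10.5%) at the adjusted p. The median log2 fold change of the carriers was 0.086, with 14 of them above 0 and 10 below. The succinate/fumarate carrier (ACIB2EUKG772306) had the highest log2 fold change of all members. It had 807 and 753 CPM in *GS115* and 1613 and 1389 in *Dmxr1*. Each *Dmxr1* library exceeded each *GS115* library by 1.72- to 2.14-fold, and the fitted log2 fold change was 0.94 (adjusted p = 0.00753, SE 0.21), short of the fold threshold. It reached that threshold, at 1.03 and 1.01, with library size alone and upper-quartile scaling, and it was not past the adjusted p without *Dmxr1* replicate 1 (0.83, adjusted p = 0.103). The major ADP/ATP carrier (ACIB2EUKG772839) had 1697 and 1484 CPM in *GS115* and 3164 and 2909.6 in *Dmxr1*. It rose 1.91-fold, a log2 fold change of 0.93 (adjusted p = 0.0110, SE 0.22), with the strains far apart. It too reached the fold threshold under those scalings, at 1.02 with library size alone, and its adjusted p was 0.119 without *Dmxr1* replicate 1. The EF-hand row ACIB2EUKG772934, an ADP/ATP transporter by its UniRef name, had 52.0 and 65.0 CPM against 81.5 and 67.4 (0.35, adjusted p = 0.199).

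The mitochondrial phosphate carriers supply the phosphate from which ATP is made. The row ACIB2EUKG769215 had 904 and 848 CPM in *GS115* and 1035 and 1051 in *Dmxr1*, and ACIB2EUKG772515 had 206 and 159 against 203 and 246. The former did not overlap between strains and the latter did. Neither passed, with log2 fold changes of 0.25 (interval -0.17 to 0.68) and 0.30 (-0.12 to 0.72). ACIB2EUKG772515 is the row next to MXR1 in the table, beside the disrupted locus, and an effect of that position was not tested. The ratio of ADP/ATP carrier to phosphate carrier ACIB2EUKG769215 was 1.88 and 1.75 in *GS115* and 3.06 and 2.77 in *Dmxr1*. The ratio was higher in both *Dmxr1* libraries, which follows from the values of both rows already given. The exact two-sided permutation p was 0.333, the smallest possible, so this test could not separate the strains.

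Among the 6 rows for carriers of di- and tricarboxylates, the succinate/fumarate carrier and ACIB2EUKG769290 rose. The latter is a citrate/oxoglutarate carrier by its UniRef name but is described as the calcium-binding carrier SCaMC-1. It had 121 and 109 CPM in *GS115* and 177 and 165 in *Dmxr1*, a log2 fold change of 0.57 (adjusted p = 0.0354, SE 0.17). Its libraries did not overlap between strains, but its adjusted p was 0.0914 without *GS115* replicate 2, 0.242 without *Dmxr1* replicate 1 and 0.0805 without *Dmxr1* replicate 2. The citrate carrier Ctp1 (ACIB2EUKG771831), which exchanges citrate for malate in *S. cerevisiae*, had 136 and 150.2 CPM against 153 and 158, a log2 fold change of 0.12 (interval -0.25 to 0.48). The 2-oxodicarboxylate carrier (ACIB2EUKG771991), which moves 2-oxoadipate and 2-oxoglutarate, had 292 and 227 against 326 and 329 (0.34, adjusted p = 0.252). Within a library, the ratio of succinate/fumarate carrier to Ctp1 was 5.93 and 5.01 in *GS115* and 10.6 and 8.80 in *Dmxr1*. Its direction follows from the values of both rows already given. Both carriers have the same KEGG entry and are told apart here by their descriptions. The dicarboxylate carrier was listed in 2 rows that share a UniRef entry, ACIB2EUKG772022 (20.5 and 17.9 against 13.1 and 19.5 CPM) and ACIB2EUKG772099 (22.0 and 18.8 against 12.3 and 18.3). The 2 rows followed each other from library to library, with *Dmxr1* replicate 1 the lowest in both. The treatment of reads that fit both rows is not given in the sources used here, and the rows may not be independent. Their log2 fold changes of -0.23 and -0.41 did not pass.

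**Figure D3:**
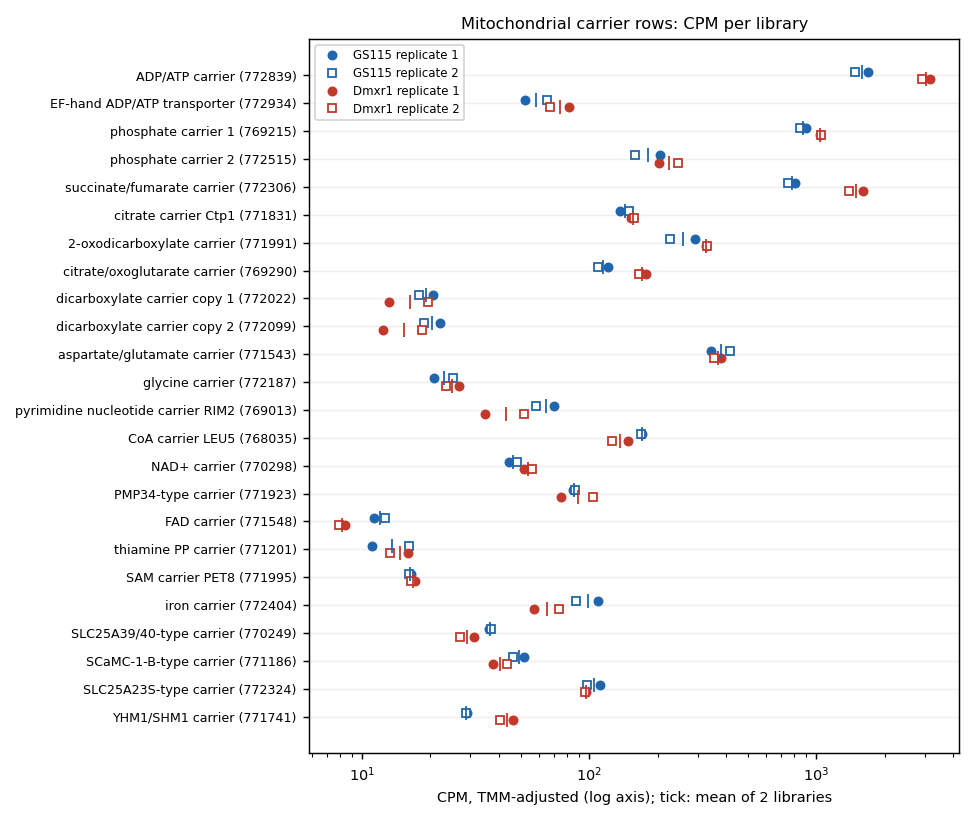
CPM per library (x axis, log scale) of the 24 carrier rows, with circles for replicate 1, squares for replicate 2 and ticks for strain means. The ADP/ATP carrier (1484 to 1697 CPM in *GS115*, 2909.6 to 3164 in *Dmxr1*) and the succinate/fumarate carrier are separated by strain, while the aspartate/glutamate carrier and phosphate carrier ACIB2EUKG772515 (phosphate carrier 2) overlap.

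Carriers of amino acids gave no row past the test. The aspartate/glutamate carrier (ACIB2EUKG771543), part of the malate-aspartate shuttle, had 342 and 415 CPM in *GS115* and 382 and 356 in *Dmxr1*, so that both *Dmxr1* libraries lay between those of *GS115*. Its log2 fold change was -0.04 (interval -0.45 to 0.37), and it was slightly above 0 with library size alone or upper-quartile scaling. The glycine carrier (ACIB2EUKG772187) had 20.8 and 25.1 CPM against 26.6 and 23.4, also overlapping, at 0.12.

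Of the 7 carriers of nucleotides and cofactors, 0 passed, with log2 fold changes from -0.58 to 0.22. At an unadjusted p under 0.05, 2 of the 7 were lower, where 18.5% of all genes were, and 0 were higher, where 13.5% were. The pyrimidine nucleotide carrier RIM2 (ACIB2EUKG769013), needed for mitochondrial DNA in *S. cerevisiae*, had 70.3 and 58.5 CPM in *GS115* and 34.9 and 51.5 in *Dmxr1*. All *Dmxr1* values were below, *Dmxr1* replicate 1 most of all, with a log2 fold change of -0.58 (adjusted p = 0.0636, SE 0.20). It passed when *Dmxr1* replicate 2 (-0.88, adjusted p = 0.0206) or *GS115* replicate 2 (-0.70, adjusted p = 0.0174) was left out. The row for transport of the flavin cofactor FAD (ACIB2EUKG771548) had 11.3 and 12.6 CPM against 8.41 and 7.91 (-0.55, adjusted p = 0.0845), and the CoA carrier LEU5 (ACIB2EUKG768035) had 171 and 169 against 148 and 126 (-0.31, adjusted p = 0.233). All 3 were lower in both *Dmxr1* libraries. The NAD+ carrier (ACIB2EUKG770298) had 44.2 and 48.2 CPM against 51.6 and 56.1, at 0.22, and the S-adenosylmethionine carrier PET8 (ACIB2EUKG771995) was close to 16 CPM in both strains, at 0.05 (interval -0.35 to 0.45). The thiamine pyrophosphate carrier (ACIB2EUKG771201), whose cargo is the cofactor of the E1 enzymes of PDH and 2-oxoglutarate dehydrogenase, overlapped between strains at 0.11. ACIB2EUKG771923, described as an NAD+ transporter but named a peroxisomal carrier of the PMP34 type by KEGG, also overlapped, at 0.06.

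The mitochondrial iron carrier (ACIB2EUKG772404), which supplies iron for heme and for the iron-sulfur clusters that aconitase and succinate dehydrogenase carry, was the only member that fell. It had 109.5 and 87.9 CPM in *GS115* and 57.4 and 73.5 in *Dmxr1*. Each *Dmxr1* library was below both *GS115* libraries, and the log2 fold change was -0.59 (adjusted p = 0.0412, SE 0.18). It did not pass without *GS115* replicate 1 (-0.43, adjusted p = 0.194), without *Dmxr1* replicate 1 (-0.43, adjusted p = 0.385) or with library size alone (-0.50, adjusted p = 0.104).

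Among the 4 carriers without a named substrate, YHM1/SHM1 (ACIB2EUKG771741) rose. The *S. cerevisiae* protein of that name exchanges GTP for GDP. It had 28.9 and 28.6 CPM in *GS115* and 46.3 and 40.4 in *Dmxr1*, with replicates close together, and its log2 fold change was 0.59 (adjusted p = 0.0308, SE 0.17). With any of the 4 libraries left out it did not pass, and its log2 fold change ranged from 0.489 to 0.686. The other 3, of the SLC25A39/40 type (ACIB2EUKG770249), the SCaMC-1-B type (ACIB2EUKG771186) and the SLC25A23S type (ACIB2EUKG772324), were lower in both *Dmxr1* libraries, at -0.34, -0.27 and -0.12, and did not pass.

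The text search also brought in 5 rows of another function. 3-isopropylmalate dehydrogenase (ACIB2EUKG771992), of leucine synthesis, rose from 89.3 and 80.7 CPM in *GS115* to 151 and 132 in *Dmxr1*. The strains were well apart, and the log2 fold change was 0.73 (adjusted p = 0.00984, SE 0.17). It did not pass without *Dmxr1* replicate 1 (adjusted p = 0.125). Alpha-isopropylmalate synthase (ACIB2EUKG770303), which uses acetyl-CoA for the entry step of the same route, had 293 and 278 CPM against 429 and 348 (0.44, adjusted p = 0.129). The fusion protein UGO1 (ACIB2EUKG771063), a relative of the carriers that joins mitochondrial outer membranes in *S. cerevisiae*, had 132 and 120.5 against 101 and 94.6 (-0.37, adjusted p = 0.139). Rows for methyltransferases of trans-aconitate (ACIB2EUKG770565 and ACIB2EUKG771661) stood at 0.36 and 0.19 and did not pass. With these and the PDH regulators left out, the median log2 fold change of the remaining 41 members was 0.12. Of these 41, 5 rose (12.2%, against 5.07% of all genes) and 1 fell (2.44%, against 10.5%).

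By the locus tags, 13 members lie on chromosome 1, 9 on chromosome 2, 16 on chromosome 3 and 13 on chromosome 4. The only members in adjacent rows of the table were the 2-oxodicarboxylate carrier ACIB2EUKG771991 and 3-isopropylmalate dehydrogenase ACIB2EUKG771992 on chromosome 3. Their log2 fold changes were 0.34 and 0.73, and only the latter passed. Whether the counting used strand is not given in the sources used here, and reads of overlapping neighbours could not be separated. PET8, 3 rows further on, stood at 0.05.

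Members with high counts had the higher log2 fold changes. CPM is not corrected for gene length, so this describes depth of counting rather than level per gene, and the bounds of 50 and 500 CPM were chosen after the values were seen. Of the 13 members at a mean of 500 CPM or more, 12 had a log2 fold change above 0, with a median of 0.53, and in 11 (84.6%) both *Dmxr1* libraries lay above both *GS115* libraries. Among all 319 genes at that level the median was 0.15 and that share 48.0%. The 25 members from 50 to 500 CPM had a median of 0.09, and the 13 members below 50 CPM a median of -0.23, where all genes had medians of -0.012 and -0.0006. The rows at 500 CPM or more include citrate synthase, aconitase, malate synthase, both malate dehydrogenases, the ADP/ATP carrier and the succinate/fumarate carrier, while the carriers of FAD, thiamine pyrophosphate and S-adenosylmethionine are below 50 CPM.

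**Figure D4:**
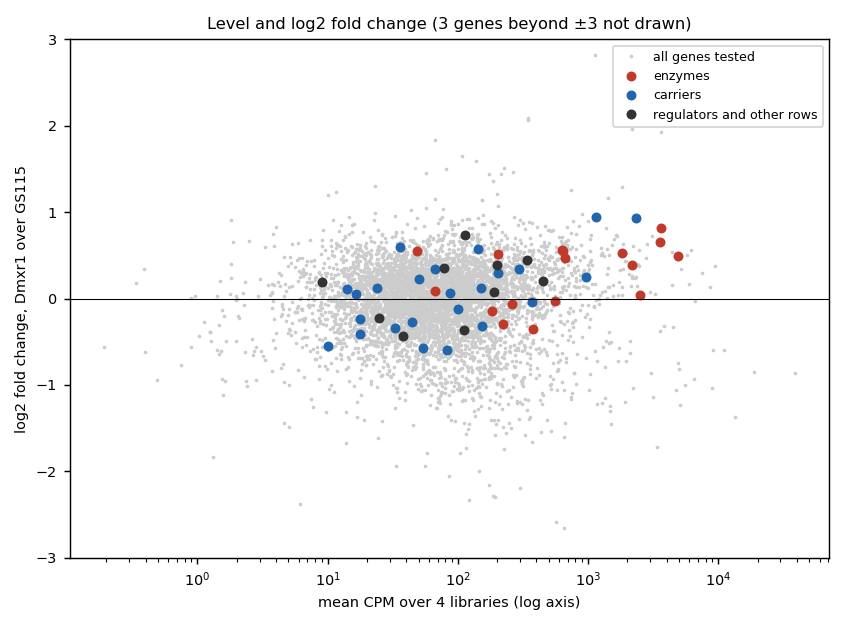
Log2 fold change (y axis) against mean CPM over the 4 libraries (x axis, log scale) for all genes tested (grey) and the members by kind, with 3 genes beyond the y axis not drawn. Members at 500 CPM or more lie above 0 except the E2 row of PDH at -0.03, and those below 50 CPM spread to both sides.

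Each of the 7 members past the adjusted p was fitted again with each library left out in turn, so that 3 libraries remained and the lone library of a strain was assumed to vary like the others. Without *GS115* replicate 1, 4 of the 7 stayed past the adjusted p. Without *GS115* replicate 2 it was 5, without *Dmxr1* replicate 1 it was 0, and without *Dmxr1* replicate 2 it was 4. The succinate/fumarate carrier, the ADP/ATP carrier and 3-isopropylmalate dehydrogenase passed in the fits without any library other than *Dmxr1* replicate 1. Their log2 fold changes without it were 0.83, 0.87 and 0.64.

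**Figure D5:**
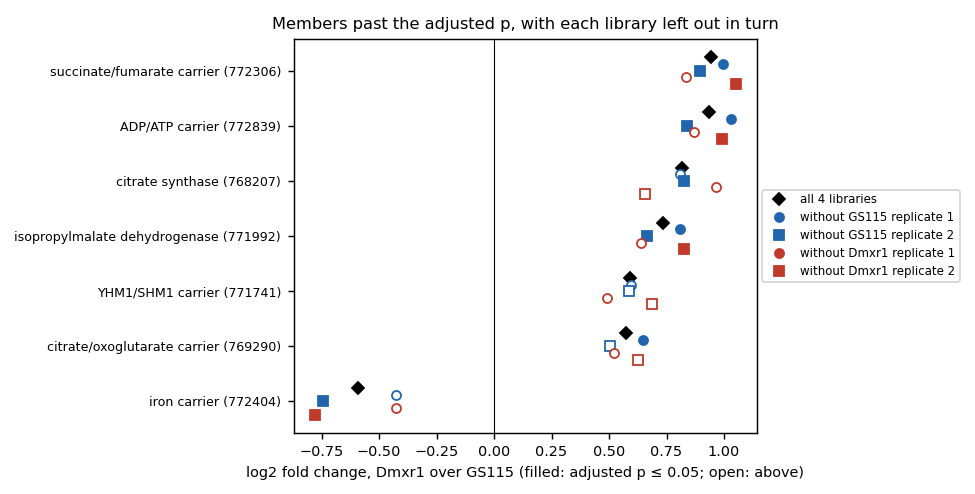
Log2 fold change (x axis) of the 7 members past the adjusted p with all 4 libraries (diamonds) and with each library left out (circles and squares); filled symbols are past an adjusted p of 0.05. All symbols keep their side of 0, and those without *Dmxr1* replicate 1 are open in every row.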

How the data were processed

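Ribosomal RNA was removed from total RNA per the labels. By the submitters' processing notes and the methods of the study, reads were demultiplexed with bcl2fastq 2.19.0.316, trimmed with fastp 0.19.6, aligned with Bowtie2 to a *K. phaffii* genome and counted per gene with featureCounts 1.6.4. The authors deposited unnormalized counts of reads for each gene, 24140235 to 29402357 per library. The Wilson intervals cover the counting error of the members' summed share of a library, not that of single genes. Of the per-sample columns, 0 had no matching sample. The reference gene table available here describes another species, 0 of 5427 identifiers matched it, and it was not used. The strain *GS115* was compared with *Dmxr1*.

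After a filter that keeps genes with 5 counts or more in 2 libraries or more, 5425 genes entered edgeR 4.0.16 in R 4.3.3 (quasi-likelihood test, TMM scaling, no replicate block), and p-values were adjusted by Benjamini-Hochberg over all of them. Calls combined an adjusted p no higher than 0.05 with a log2 fold change of 1 or more in size. The standard error is the log2 fold change divided by the square root of F. The 95% intervals use edgeR's degrees of freedom and are not adjusted. Alternatives were other scalings and filters, DESeq2 1.42.0, a replicate block and leaving out each library. The fit was also run on simulated data with a single spread setting for all genes. Its planted changes were no smaller than the fold threshold, so it does not show how well smaller changes are found.

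The members, role groups and lists were chosen with earlier results of these data known. Named genes were MXR1, every member past the adjusted p, the member with the highest CPM in each role group, every row of a cycle or bypass step, members that change under an alternative, and carriers with a named substance. Role groups came from annotation text alone. No sequences are printed.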

Additional observations from a re-analysis of the deposited data

How the results depend on the processing

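With 2 libraries per strain, many counts moved with the processing, and the cause was not tested. RLE scaling in edgeR, no filter and a filter of 1 CPM gave the same numbers of members past each threshold. With library size alone, 2 members were called higher, 10 were higher and 0 lower at the adjusted p, and the median log2 fold change was 0.191. Upper-quartile scaling gave 2, 11 and 1, with a median of 0.179. Over all genes these scalings changed the split at the adjusted p from 275 higher and 567 lower to 329 and 391 (library size) and 448 and 532 (upper quartile). DESeq2 put 12 members higher. The 2 members called under those scalings were the succinate/fumarate and ADP/ATP carriers. All 7 members past the adjusted p kept their direction in every setting run.

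Replicate numbers in the labels come with no shared batch, and deviations of same-numbered libraries correlated at -0.144, so the numbers were not taken as pairs. With the replicate block, 2 members were higher and 0 lower at the adjusted p, 0 of the other pathway genes were lower, and over all genes 107 were higher and 282 lower. The crossed replicate block, chosen after seeing the data, gave 9 members higher and 2 lower.

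With each library left out in turn, members called higher ranged from 0 to 1, members higher at the adjusted p from 0 to 5, members lower from 0 to 2 and their median from 0.0777 to 0.177. The other pathway genes ranged from 2 to 4 called higher, from 2 to 6 higher and from 0 to 1 lower at the adjusted p. Over all genes, 45 to 289 were higher and 164 to 757 lower at the adjusted p.

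Values near 0 changed sign. With library size alone and upper-quartile scaling, log2 fold changes became 0.0475 and 0.0325 for ACIB2EUKG768129 (PDH E2), 0.026 and 0.000722 for ACIB2EUKG769710 (PDH E1 alpha), and 0.0276 and 0.0178 for ACIB2EUKG771543 (aspartate/glutamate carrier). With a library left out, the log2 fold change ranged from -0.248 to 0.0913 for ACIB2EUKG769710, -0.174 to 0.107 for ACIB2EUKG771543, -0.133 to 0.41 for ACIB2EUKG771201 (thiamine pyrophosphate carrier), -0.191 to 0.28 for ACIB2EUKG771923 (PMP34 type) and -0.548 to 0.026 for ACIB2EUKG772022 (dicarboxylate carrier). It ranged from -0.133 to 0.19 for ACIB2EUKG772063 (a succinate dehydrogenase assembly factor), -0.102 to 0.176 for ACIB2EUKG772162 (malate dehydrogenase), -0.00494 to 0.263 for ACIB2EUKG772187 (glycine carrier) and -0.229 to 0.327 for ACIB2EUKG772829 (PDH phosphatase).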
